A study of Mus musculus with 7 samples.

Results

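Cytosolic ribosomal protein genes encode the proteins of the large and small subunits of the ribosome that translates nuclear mRNAs. They were followed here in mouse cardiac neural crest cells with and without the chromatin remodeller CHD7. The members are the rows of the deposited table whose symbol is Rpl or Rps with a number and at most 1 further letter, or Rplp0, Rplp1, Rplp2 or Rpsa. This rule reads symbols alone. It gave 80 of 19144 rows, 48 of them for the large subunit and 32 for the small subunit. Rows with other name forms, such as Rps3a1, Fau and Rack1, fell outside it and are given separately. Of the 80, 78 had a mean of at least 1 FPKM (fragments per kilobase of transcript, scaled to library size) and were tested among 11039 genes. Rpl32l, annotated in GENCODE as a processed pseudogene and at most 0.108 FPKM in any library, and Rpl39l, at most 0.0399 FPKM, were not tested.

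Each ribosome holds 1 copy of nearly every ribosomal protein, and cells make these proteins in step with ribosomal RNA, so the genes are among the most strongly transcribed in growing cells. Their mRNAs commonly start with a run of pyrimidines, the 5' terminal oligopyrimidine motif, through which mTOR and LARP1 control their translation. Loss of 1 copy of some of these genes causes Diamond-Blackfan anaemia in humans, which can include craniofacial and heart defects. In mice some mutants have altered pigmentation or skeletal pattern. CHD7 is mutated in human CHARGE syndrome, which affects neural crest derivatives, and has been reported to act on ribosomal RNA genes in the nucleolus.

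The Chd7 deletion group had 3 libraries, numbered 1, 3 and 4, from embryos carrying Wnt1-Cre2, 2 floxed Chd7 alleles (Chd7 loxp/loxp) and the mTmG reporter. The wild-type group had 4 libraries, numbered 1 to 4, from embryos carrying Wnt1-Cre2, Chd7 +/+ and mTmG. In both groups the Cre, active in the neural crest, switches mTmG to GFP, and GFP-positive cells were sorted from pharyngeal arches 3 to 6 at stage E10.5. The labels give the control genotype as Chd7 +/+, although the parental cross they describe would pass a floxed copy to each embryo. The genotype is used here as labelled. They name no litter, batch or number of embryos per library, so the p-values below rest on library-to-library spread, part of which can be technical. In sorted bulk RNA, fewer cells of a type and less RNA per cell cannot be told apart.

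The summed FPKM ranged from 170809.1 to 206059.4 in Chd7 deletion libraries and from 186578.2 to 209559.7 in wild-type libraries. Relative sequencing depth, read from very low values and set to 1 for wild type 1, was 0.865 to 1.12 in Chd7 deletion libraries and 0.912 to 1.29 in wild-type libraries. Chd7 had 7.5, 7.72 and 7.91 FPKM in Chd7 deletion libraries, against 14, 13.9, 14.6 and 14.3 FPKM in wild-type libraries, or 54.3% of the wild-type mean. Its log2 fold change was -0.80 ± 0.0624 (SE; limma adjusted p = 0.00266), and the value covers the whole gene, not the floxed part alone. All 14 neural crest and arch mesenchyme markers were above 0.5 FPKM in at least 1 library. Their summed level was 187.3 to 235 FPKM in Chd7 deletion libraries and 207.6 to 274.7 FPKM in wild-type libraries. Single markers differed in both directions. Of the 14, 2 were higher and 1 was lower past an adjusted p of 0.05, and the groups did not overlap in 9 (64.3%), against 9.17% of all genes tested. Sox10 and Foxd3, of early and glial crest, had log2 fold changes of 0.78 and 0.58, and Hand2, of arch mesenchyme, had -1.11 (limma adjusted p = 0.0193, 0.0142 and 0.0142). The part of this marker shift in the ribosomal protein levels was not tested. Chd7 deletion 1 stood apart from all other libraries in the ribosomal protein genes, so medians of the members and their lists are given with and without it.

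The start of the transcript is where the members carry the pyrimidine motif. RefSeq promoter sequences on GRCm38.p6 matched 59 of the 80 members. Runs of at least 5 pyrimidines that held both C and T were looked for within 3 bases of an annotated start. Such a run was found in 31 of these 59 members (52.5%). The shares were 28.8% of 8632 other tested genes and 28.5% of all 27025 genes of the promoter table. The 31 include the untested Rpl32l and Rpl39l. Among tested members 29 had a run and 28 had none. The 30-base windows around the annotated start that follow show 5 members with such a run, in capitals, and then Rps4x and Rpl24, which have none at the annotated start. Rps6, at chr4:86857353-86857382 on the minus strand, encodes the small-subunit protein phosphorylated by S6 kinase. Rpl15 lies at chr14:18270972-18271001, minus strand, and Rpl35 at chr2:39005117-39005146, minus strand. Rpl38, at chr11:114668565-114668594 on the plus strand, is needed in mice for translation of a subset of Hox mRNAs. Rps27 lies at chr3:90213634-90213663, minus strand, Rps4x at chrX:102189377-102189406, minus strand, and Rpl24 at chr16:55966260-55966289, plus strand.
Rps6: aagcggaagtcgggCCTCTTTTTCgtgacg
Rpl15: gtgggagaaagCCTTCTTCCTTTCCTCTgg
Rpl35: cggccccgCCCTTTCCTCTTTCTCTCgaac
Rpl38: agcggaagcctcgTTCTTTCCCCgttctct
Rps27: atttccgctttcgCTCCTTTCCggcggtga
Rps4x: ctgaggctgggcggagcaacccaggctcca
Rpl24: agaaagctgttgctaggaaacagactgggc

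Over 300 bases of promoter (250 before the start and 50 after it), on both strands, the GABP motif CCGGAAG was present in 42.4% of the 59 members, against 21.5% of the other tested genes. The YY1 motif AAGATGGC was present in 8.47% of members and 5.77% of the other tested genes, and TATAAA in 11.9% of members and 7.83% of the other tested genes. Over all genes of the promoter table the shares were 9.93% for CCGGAAG, 3.19% for AAGATGGC and 15.7% for TATAAA, so TATAAA in the members lay between the other tested genes and all genes. A match is a description of these letters and not a binding site.

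The members were abundant in every library. The median of their mean levels was 203.2 FPKM, against 6.82 FPKM over all genes tested, and members took 34 of the 100 highest rows of the table. Mean levels over the 7 libraries ran from 726.0 FPKM for Rps2 to 7.86 FPKM for Rpl30, a 92.3-fold range, although the encoded proteins are assembled in equal number. How reads matching several places were counted is not given, and their part in this range was not tested. There were 22 members above 300 FPKM and 11 below 50 FPKM. The plot of levels by member shows each library as a point for 75 members, and shows Chd7 deletion 1 at the left end of nearly every line.

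**Figure D1:**
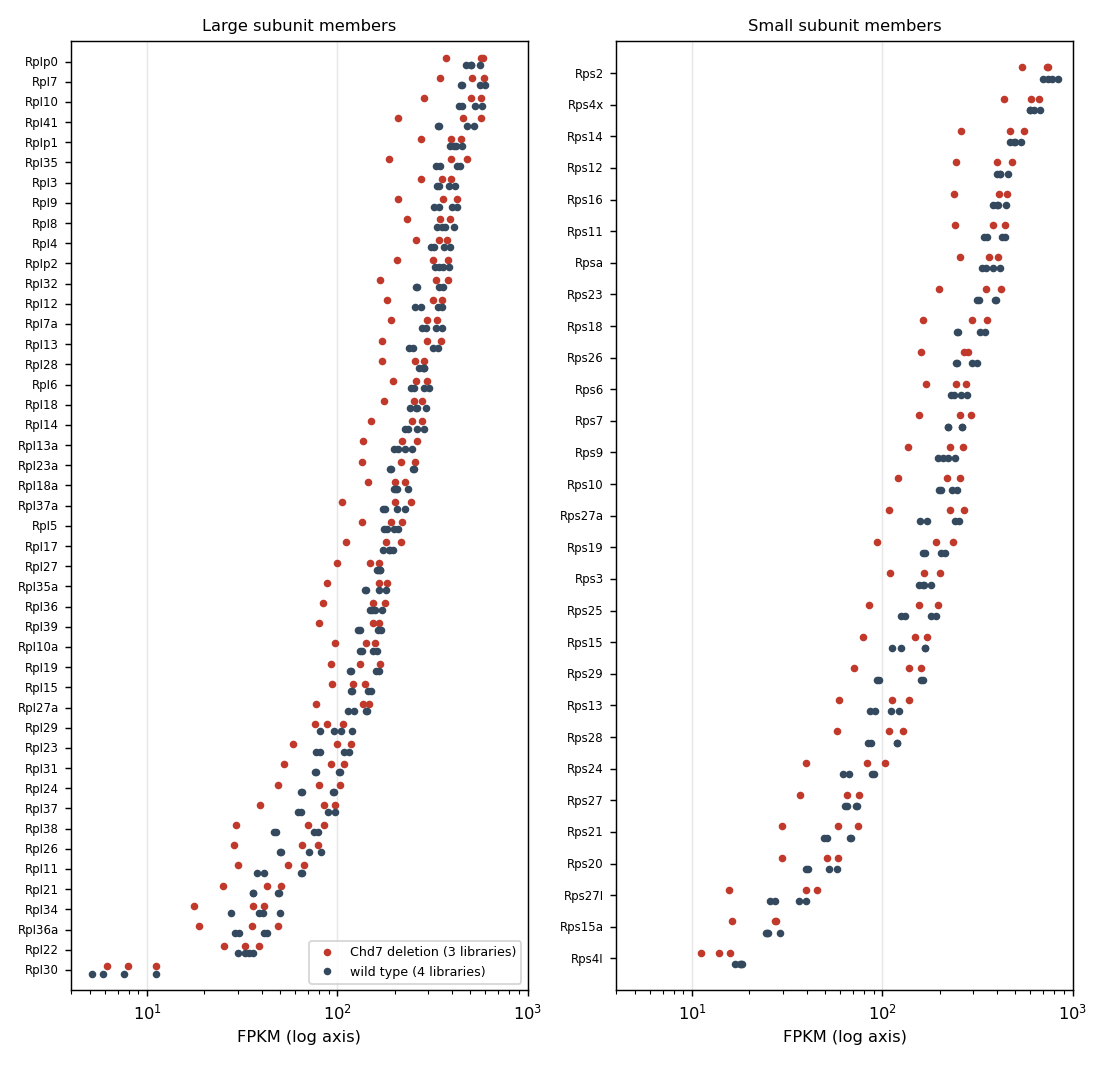
FPKM (log axis) of 75 of the 78 tested members, large subunit on the left and small subunit on the right, ordered by mean level; red points are the 3 Chd7 deletion libraries and dark points the 4 wild-type libraries. The lowest red point, Chd7 deletion 1, lies below all other libraries in every plotted member but Rpl30.

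Among small-subunit members, Rps2, a protein at the mRNA entry side, had 540.9, 747.0 and 732.3 FPKM in Chd7 deletion libraries 1, 3 and 4, against 701.1, 779.9, 740.7 and 840.4 FPKM in wild-type libraries 1 to 4. Rps4x, encoded on the X chromosome, had 434.8, 666.6 and 607.1 FPKM in Chd7 deletion libraries, against 597.6, 600.1, 628.9 and 676.6 FPKM in wild-type libraries. Rps14, a protein of the decoding platform, had 259.6, 558.6 and 470.3 FPKM in Chd7 deletion libraries, against 469.1, 491.3, 497.0 and 535.4 FPKM in wild-type libraries. In all 3 genes the groups overlapped, and only Chd7 deletion 1 lay below the whole wild-type range.

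Among large-subunit members, Rplp0, the base of the stalk that recruits translation factors, was highest. Rplp0 had 371.4, 569.2 and 585.5 FPKM in Chd7 deletion libraries, against 475.3, 503.4, 503.2 and 563.7 FPKM in wild-type libraries. It was the only member of the 78 in which Chd7 deletion 3 and 4 both lay above all wild-type libraries, while Chd7 deletion 1 lay below them all. Rpl7 had 347.0, 591.1 and 509.0 FPKM in Chd7 deletion libraries, against 446.8, 453.8, 559.2 and 595.9 FPKM in wild-type libraries. Rpl10, a late-joining protein near the peptidyl transferase centre, had 285.5, 571.9 and 506.0 FPKM in Chd7 deletion libraries, against 434.6, 451.6, 531.4 and 574.9 FPKM in wild-type libraries. At the low end, Rpl30, which binds its own transcript in yeast, had 6.16, 11.2 and 7.91 FPKM in Chd7 deletion libraries, against 7.6, 5.15, 11.2 and 5.87 FPKM in wild-type libraries. Rpl30 was the only tested member whose lowest library was not Chd7 deletion 1, and its wild-type values spread 2.68 FPKM (SD) around 7.44 FPKM.

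No tested member differed between the groups past the threshold. With limma on log2(FPKM + 1) over all 11039 genes, 0 of 78 members had an adjusted p below 0.05, against 0.888% of all genes tested (98, of which 45 were higher and 53 lower after deletion). At an unadjusted p below 0.05 there was 1 member, Rps4l, against 7.38% of all genes tested. The adjusted p of the other 77 members lay between 0.856 and 0.986. The log2 fold change was below 0 in 77 of 78 members, Rpl30 being the exception, with a median of -0.16 (range -0.38 to 0.17), against a median of -0.04 over all genes tested. The 95% interval of the log2 fold change held 0 in 77 of 78 members and lay within 2-fold in either direction in 77 of 78. Its lowest bound was -1.02 in Rpl34 and its highest was 0.75 in Rpl30, so these data do not show that the levels were alike at a finer scale. The median was -0.16 both in 46 large-subunit and in 32 small-subunit members.

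The sign of that median depended on which libraries were compared. Without Chd7 deletion 1 the median log2 fold change of the members was 0.11, with 71 of 78 above 0, and the all-gene median was 0.02. The 7 members still below 0 were Rpl15, Rpl27, Rpl28, Rpl29, Rplp2, Rps2 and Rps4l. That fit sets Chd7 deletion 3 and 4 against all 4 wild-type libraries, of which wild type 1 and 2 had the lower member levels. Using libraries 3 and 4 of each group alone, the median was -0.04, with 55 of 78 below 0. After rescaling to an equal sum it was 0.02. In limma, 0 members were past the threshold without Chd7 deletion 1, against 0.706% of all genes tested, and 0 in libraries 3 and 4 alone, against 1.26%.

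The share of all FPKM held by the 80 members gives the same picture as 1 value per library. It was 6.52%, 10% and 9.42% in Chd7 deletion libraries 1, 3 and 4, against 8.36%, 8.93%, 9.4% and 9.75% in wild-type libraries 1 to 4. The lowest and the highest library were both Chd7 deletion libraries, and Chd7 deletion 4 lay within the wild-type range. The mean was 8.65% ± 1.87 in Chd7 deletion libraries and 9.11% ± 0.603 in wild-type libraries (SD, n = 3 and 4), a difference of -0.464 percentage points that is smaller than the spread within the Chd7 deletion group. Without Chd7 deletion 1 the Chd7 deletion mean was 9.71%. Large-subunit members held 3.63%, 5.56% and 5.23% in Chd7 deletion libraries, against 4.6%, 4.91%, 5.23% and 5.43% in wild-type libraries. Small-subunit members held 2.89%, 4.45% and 4.19% in Chd7 deletion libraries, against 3.76%, 4.02%, 4.18% and 4.33% in wild-type libraries, so both subunits followed the same order of libraries.

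Rn45s, the precursor of ribosomal RNA that ribosomal RNA depletion should remove, ran largely opposite to the ribosomal protein shares. The order was not strict, as Chd7 deletion 3 had the largest ribosomal protein share but not the least Rn45s. It took 8.68%, 5.03% and 4.84% of summed FPKM in Chd7 deletion libraries 1, 3 and 4, against 7.15%, 6.56%, 4.36% and 4.11% in wild-type libraries 1 to 4. The libraries with the most Rn45s, Chd7 deletion 1 and wild type 1, had the smallest ribosomal protein shares. Leaving Rn45s and other non-coding RNA rows out of the sum gave the members 7.24% in Chd7 deletion 1 and 10.1% to 10.7% in the other Chd7 deletion libraries, against 9.14% to 10.3% in wild-type libraries, so the low share of Chd7 deletion 1 was present without those rows. Neuronal markers (7 of 7 in the table, none below 0.5 FPKM throughout) summed to 326.6, 297.6 and 194.1 FPKM in Chd7 deletion libraries, against 348.1, 289.6, 253.3 and 183.8 FPKM in wild-type libraries. Erythroid markers summed to 22.9, 55.3 and 41 FPKM in Chd7 deletion libraries, against 30.7, 24.3, 38.1 and 22.5 FPKM in wild-type libraries, with 6 of 11, Gata1 and Klf1 among them, below 0.5 FPKM in every library. Endothelial, myocardial, epithelial and leukocyte markers each summed to at most 16 FPKM in Chd7 deletion libraries and 15.2 FPKM in wild-type libraries. The part of ribosomal RNA carry-over, library preparation and neuronal or erythroid content in the ribosomal protein levels was not tested.

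**Figure D2:**
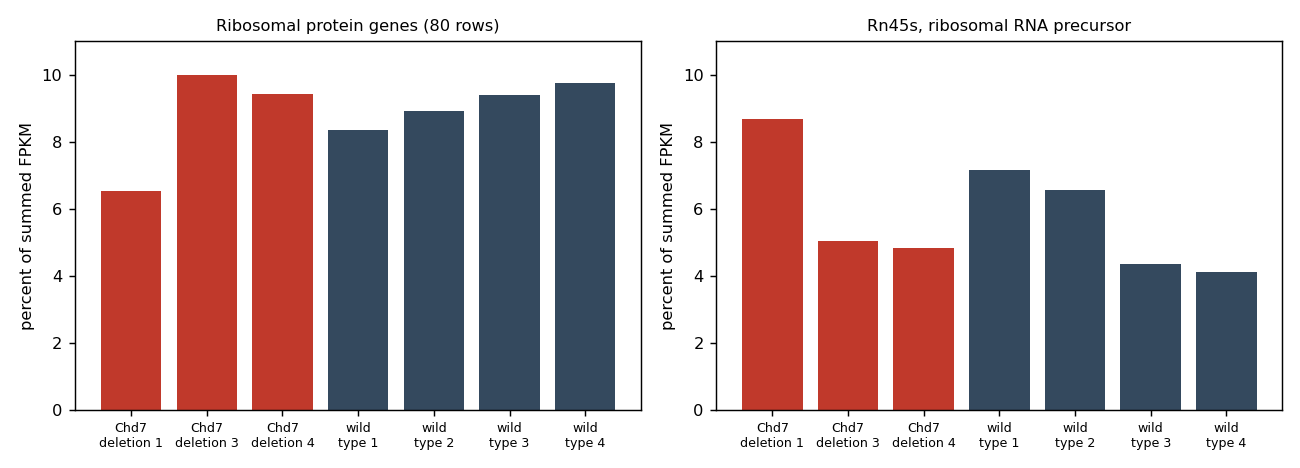
Percent of summed FPKM held by the 80 ribosomal protein rows (left) and by Rn45s (right), 1 bar per library, with the 3 Chd7 deletion libraries in red left of the 4 wild-type libraries in dark grey. Chd7 deletion 1 has the smallest ribosomal protein share, 6.52%, and the largest Rn45s share, 8.68%.

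The library pattern was shared by nearly the whole family. Set against each member's own mean over the 7 libraries on the log2(FPKM + 1) scale, the median deviation was -0.66 in Chd7 deletion 1, 0.29 in Chd7 deletion 3 and 0.07 in Chd7 deletion 4. It was -0.09, -0.07, 0.19 and 0.27 in wild-type libraries 1 to 4. Chd7 deletion 1 was the lowest library in 77 of 78 members (98.7%), against 49.9% of all genes tested. The share was also high in related sets, at 93.6% of mitochondrial ribosomal protein genes, 92.5% of initiation factors and 71.4% of other genes of at least 30 FPKM. The highest library was Chd7 deletion 3 in 45 members and wild type 4 in 31. The median coefficient of variation of the members was 31.8% in Chd7 deletion libraries and 12.5% in wild-type libraries, against 11.9% in Chd7 deletion libraries and 9.81% in wild-type libraries over all genes tested.

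**Figure D3:**
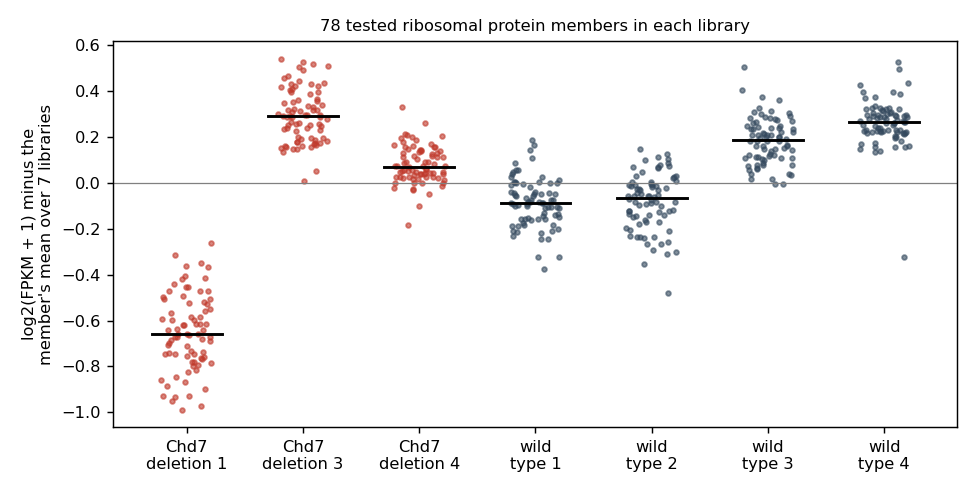
Each point is 1 of the 78 tested members, plotted as log2(FPKM + 1) minus that member's mean over the 7 libraries, with Chd7 deletion libraries in red and wild-type libraries in dark grey; black lines are medians. The Chd7 deletion 1 points lie between -0.99 and -0.26, with a median of -0.66, while the medians of the other libraries lie between -0.09 and 0.29. Single points of wild type 1, 2 and 4 reach into that range, down to -0.38, -0.48 and -0.32.

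Same-numbered libraries of the groups deviated together, so pairs 1, 3 and 4 were also compared. In pair 1, Chd7 deletion minus wild type, the median log2 difference of the members was -0.57 and all 78 were below 0. In pair 3 it was 0.11, with 3 of 78 below 0, and in pair 4 it was -0.19, with 76 of 78 below 0. Over all genes tested the medians were -0.11, -0.00 and -0.09 in pairs 1, 3 and 4. The pairs thus differed in sign for the members, and the share of summed FPKM differed by -1.84, 0.601 and -0.331 percentage points in pairs 1, 3 and 4. With the replicate number as a block, in which unpaired wild type 2 carries no weight for the genotype, 0 of 78 members passed the threshold, against 3.32% of all genes tested (366). At an unadjusted p below 0.05 there were 3 members, against 22.8% of all genes tested. The median log2 fold change in that fit was -0.21 for the members and -0.07 for all genes tested.

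Within pair 1 the members differed in size but not in sign. The log2 difference was -1.10 in Rpl34, -0.88 in Rpl35, -0.85 in Rps14 and -0.81 in Rpl36, against -0.26 in Rpl30 and -0.27 in Rpl3 and Rpl4. Across the 78 members this difference ran with transcript length (Spearman 0.457, a description over genes that share the same libraries), and across 10870 other genes the value was 0.263. Length is that of 1 annotated transcript per gene, for coding genes the shortest coding one where no principal transcript was marked. The 26 members with transcripts up to 600 bases had medians of -0.66, 0.16 and -0.18 in pairs 1, 3 and 4. The 52 longer members had medians of -0.51, 0.09 and -0.19, so both length classes showed the same order of pairs. The median transcript length of the members was 756 bases. Other genes tested with transcripts up to 750 bases (1648) had medians of -0.11, 0.00 and -0.08 in pairs 1, 3 and 4. Those with transcripts above 750 and up to 1500 bases (1638) had medians of -0.24, 0.02 and -0.13. Other genes of at least 30 FPKM with transcripts up to 1500 bases (368) had medians of -0.28, -0.00 and -0.19 in pairs 1, 3 and 4. The 29 tested members with a pyrimidine run had medians of -0.62, 0.09 and -0.17, and the 28 without one had -0.51, 0.12 and -0.19.

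The wild-type libraries also formed 2 sets. In 68 of 78 members (87.2%) both wild type 1 and wild type 2 lay below both wild type 3 and wild type 4, against 56.1% of all genes tested. Related sets had like shares, at 85.9% of mitochondrial ribosomal protein genes, 90.2% of ribosome assembly factors, 85% of initiation factors and 75.1% of other genes of at least 30 FPKM. The median log2 difference between these sets was -0.30 for the members and -0.12 for all genes tested. The labels do not say what separates the libraries. This difference among wild-type libraries was larger than the members' median difference between the groups. With the library set as a covariate, 1 of 78 members, Rps4l, was past the threshold, against 6.52% of all genes tested.

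Rps4l was the member closest to a difference. It is annotated in GENCODE as a transcribed processed pseudogene at chr6:148354656-148355598, plus strand (GRCm38), and its transcript is 79.8% identical to that of Rps4x over 792 aligned columns. The stretch of 60 bases that follows, from the 2 annotated transcripts (Rps4l bases 181 to 240, Rps4x bases 275 to 334), shows in capitals the 13 bases at which the 2 copies differ.
Rps4l: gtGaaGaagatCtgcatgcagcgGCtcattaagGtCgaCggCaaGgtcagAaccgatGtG
Rps4x: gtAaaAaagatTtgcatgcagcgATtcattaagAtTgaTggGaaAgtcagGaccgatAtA

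Rps4l had 11.1, 15.9 and 13.8 FPKM in Chd7 deletion libraries, against 18.1, 16.8, 18.3 and 17.9 FPKM in wild-type libraries, so the groups did not overlap. It was the only 1 of 78 members without overlap (1.28%), against 9.17% of all genes tested. Its mean was 13.6 ± 2.38 FPKM in Chd7 deletion libraries and 17.8 ± 0.67 FPKM in wild-type libraries (SD, n = 3 and 4), a 1.31-fold lower level. The log2 fold change was -0.38 ± 0.11 (SE; 95% interval -0.63 to -0.13), with an unadjusted p of 0.00796 and an adjusted p of 0.271 in limma. The exact 2-sided permutation p (35 arrangements of the 7 libraries) was 0.0286, the lowest possible in this design, and is not adjusted for the choice among members. Without Chd7 deletion 1 the log2 fold change was -0.25. With the replicate block the adjusted p was 0.0752 in limma, and with the block on values of equal sum it was 0.00721, a fit in which 8.27% of all genes tested were called. With the block and median-of-ratios factors it was 0.0388 in limma, with 5.5% of all genes tested called. Rps4l therefore passed the threshold only in some of the fits. Of its 50-base words, 17.97% also occurred in the transcript of another gene.

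**Figure D4:**
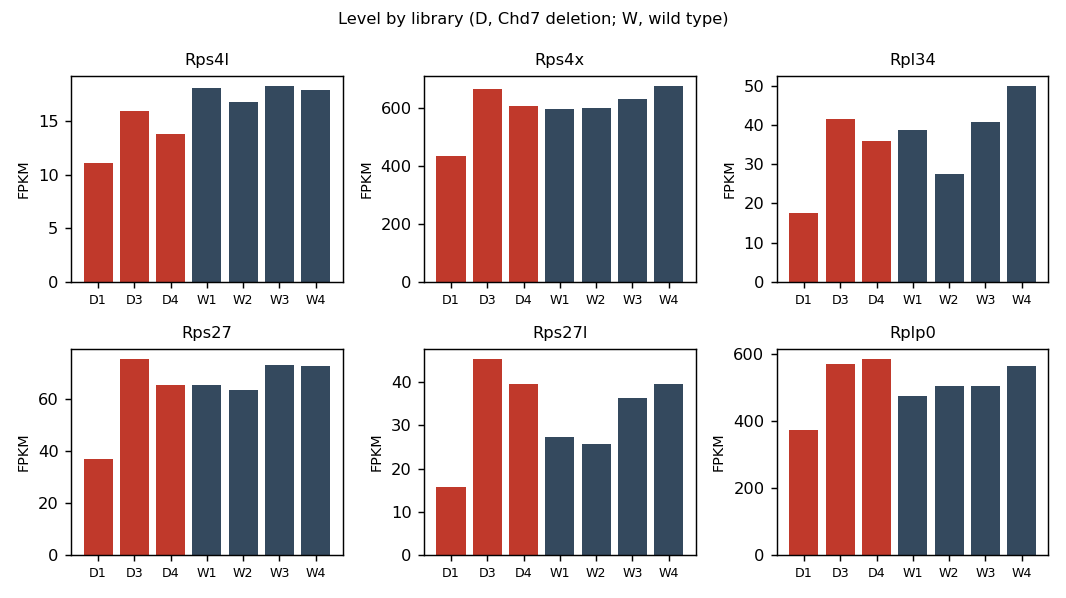
FPKM of 6 members in each library (D, Chd7 deletion 1, 3 and 4, in red; W, wild type 1 to 4, in dark grey); the axes start at 0 and differ between panels. Rps4l is lower in each Chd7 deletion library than in any wild-type library, while in the other 5 genes the groups overlap and D1 is the lowest bar.

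The other members with the lowest log2 fold changes were Rpl34, Rpl27, Rps14, Rpl28 and Rps27. Rpl34 had 17.6, 41.4 and 35.9 FPKM in Chd7 deletion libraries, against 38.7, 27.6, 40.7 and 50 FPKM in wild-type libraries, with a log2 fold change of -0.36 ± 0.291 (SE; limma adjusted p = 0.933). Its values spread widely within each group, and the log2 fold change was 0.00 without Chd7 deletion 1. With the replicate block on values of equal sum the adjusted p of Rpl34 was 0.0269 in limma. Rpl27 averaged 138.3 ± 34.6 FPKM in Chd7 deletion libraries and 165.3 ± 3.58 FPKM in wild-type libraries (SD, n = 3 and 4; limma adjusted p = 0.856). Rpl28 averaged 238.2 ± 59.1 FPKM in Chd7 deletion libraries and 280.8 ± 7.57 FPKM in wild-type libraries (SD, n = 3 and 4; limma adjusted p = 0.908). The wild-type libraries agreed closely in both genes, and among the Chd7 deletion libraries library 1 was lowest in both. At the other end, after Rpl30, stood Rplp0, Rpl22, Rps27l, Rps13 and Rpl11, with log2 fold changes between -0.07 and -0.03.

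Several members have a near copy with another expression pattern. Rps27l, a p53-induced paralog of Rps27 in human cells, had 15.7, 45.5 and 39.6 FPKM in Chd7 deletion libraries, against 27.4, 25.8, 36.3 and 39.7 FPKM in wild-type libraries. Rps27 had 37.0, 75.7 and 65.6 FPKM in Chd7 deletion libraries, against 65.4, 63.5, 73.4 and 72.8 FPKM in wild-type libraries. In both genes Chd7 deletion 1 was lowest and Chd7 deletion 3 highest, and neither passed the threshold (limma adjusted p = 0.986 for Rps27l and 0.933 for Rps27). Rpl39, a short protein of the exit tunnel, averaged 133.6 ± 46.8 FPKM in Chd7 deletion libraries and 148.3 ± 21.5 FPKM in wild-type libraries (SD, n = 3 and 4), while its testis-enriched paralog Rpl39l was near 0. Rpl3l and Rpl10l, the paralogs of Rpl3 and Rpl10 known from muscle and testis, have no row among those used. Of the 9 tested genes in the paralog list, 0 passed the threshold, against 0.888% of all genes tested. Their median log2 fold change was -0.16, or 0.10 without Chd7 deletion 1 and -0.04 in libraries 3 and 4 alone.

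The stalk proteins Rplp1 and Rplp2 bind Rplp0 and contact elongation factors. Rplp1 had 274.6, 444.6 and 394.5 FPKM in Chd7 deletion libraries, against 409.2, 421.9, 393.1 and 451.7 FPKM in wild-type libraries. Rplp2 had 205.7, 380.6 and 319.1 FPKM in Chd7 deletion libraries, against 324.7, 341.3, 357.6 and 385.7 FPKM in wild-type libraries. The groups overlapped in all 3 stalk genes, and 0 of 3 passed the threshold, against 0.888% of all genes tested. Their median log2 fold change was -0.20, which was 0.00 without Chd7 deletion 1. Taken as a percent of the members' summed FPKM, Rplp2 held 1.82% in Chd7 deletion libraries and 1.95% in wild-type libraries with no overlap. The same measure did not overlap for Rpl14 (1.36% in Chd7 deletion and 1.4% in wild-type libraries) and Rps7 (1.42% in Chd7 deletion and 1.34% in wild-type libraries). These 3 of 78 proportions (3.85%), against 4.35% of all genes tested when set over the same sum, are a description, named after their values were seen.

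Of 19 tested members whose human genes are mutated in Diamond-Blackfan anaemia, 0 passed the threshold, against 0.888% of all genes tested. All 19 were below 0, as were 77 of the 78 tested members, and the median log2 fold change was -0.18. Rps19, the gene most often mutated in that disease, had 93.3, 234.7 and 192.5 FPKM in Chd7 deletion libraries, against 163.3, 168.1, 202.8 and 212.4 FPKM in wild-type libraries. Without Chd7 deletion 1 the median of these 19 was 0.16, and in libraries 3 and 4 alone it was -0.04. Of 7 members whose proteins bind MDM2 and so act on p53, 0 passed the threshold. Their median was -0.09, or 0.20 without Chd7 deletion 1 and -0.04 in libraries 3 and 4 alone. Rpl5 had 135.2, 218.4 and 191.1 FPKM in Chd7 deletion libraries, against 175.1, 182.5, 199.5 and 209.0 FPKM in wild-type libraries. Rpl11, its partner in the complex with 5S ribosomal RNA, had 29.9, 67.0 and 55.3 FPKM in Chd7 deletion libraries, against 37.9, 41.0, 64.4 and 65.1 FPKM in wild-type libraries. In both genes the groups overlapped and Chd7 deletion 1 was lowest.

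Among 9 members with described mouse mutants, 0 passed the threshold, against 0.888% of all genes tested. Their median log2 fold change was -0.10. It was 0.18 without Chd7 deletion 1 (8 of 9 above 0) and -0.01 in libraries 3 and 4 alone. Rpl38 had 29.3, 85.5 and 70.2 FPKM in Chd7 deletion libraries, against 46.6, 47.5, 75.5 and 78.9 FPKM in wild-type libraries. The log2 fold change of Rpl38 was 0.36 without Chd7 deletion 1 and 0.00 in libraries 3 and 4 alone. Rpl24, mutated in the Belly spot and tail mouse, had 48.6, 103.4 and 79.7 FPKM in Chd7 deletion libraries, against 64.4, 64.9, 96.0 and 94.6 FPKM in wild-type libraries. In both genes wild type 1 and 2 lay below wild type 3 and 4, and Chd7 deletion 3 was above them all. Rpl29, whose loss gives small mice, averaged 90.7 ± 15.5 FPKM in Chd7 deletion libraries and 100.2 ± 16.2 FPKM in wild-type libraries (SD, n = 3 and 4). Rps20, with Rps19 known from dark-skinned mouse mutants, averaged 46.4 ± 14.9 FPKM in Chd7 deletion libraries and 47.9 ± 8.99 FPKM in wild-type libraries (SD, n = 3 and 4).

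Some ribosomal protein genes lie outside the naming rule. Of 8 tested, 0 passed the threshold, against 0.888% of all genes tested. All 8 had a log2 fold change below 0, and the median was -0.19. Without Chd7 deletion 1 the median was 0.01, with 4 of 8 above 0. Rps3a1 had 195.3, 270.9 and 320.7 FPKM in Chd7 deletion libraries, against 291.2, 253.3, 322.1 and 371.5 FPKM in wild-type libraries. Rack1, a scaffold protein on the small subunit, had 315.3, 450.1 and 398.7 FPKM in Chd7 deletion libraries, against 407.0, 423.0, 418.1 and 465.0 FPKM in wild-type libraries. Fau, which encodes a ubiquitin-like fusion with a small-subunit protein, averaged 110.3 FPKM in Chd7 deletion libraries and 123.9 FPKM in wild-type libraries. In Rps3a1 and Rack1 the groups overlapped, with Chd7 deletion 1 lowest.

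Other genes of translation also had pair 3 as the highest of the 3 pair medians, with smaller differences between pairs. Mitochondrial ribosomal proteins, which form a separate ribosome (78 tested), had median log2 differences of -0.36, 0.04 and -0.16 in pairs 1, 3 and 4, and 0 passed the threshold. Elongation factors (8 tested) had medians of -0.33, 0.04 and -0.17. A list of 20 other genes, entered as having a pyrimidine motif and not taken from the scan of starts above, had -0.35, 0.04 and -0.17. Most of these 20 genes also stand in other gene lists used here, so their medians are not a separate result. Host genes of small nucleolar RNAs (10 tested), many of them also of the pyrimidine class, had medians of -0.45, -0.01 and -0.20. Initiation factors (40 tested) had -0.23, -0.02 and -0.20, and ribosome assembly factors (41 tested) had -0.11, -0.02 and -0.16, the only 1 of these 6 lists in which pair 4 and not pair 1 was lowest. In these 6 lists 0 genes passed the threshold in either direction. Of 19 genes of the mTOR and MYC growth pathways, 1 was higher and 0 were lower, against 0.888% of all genes tested in either direction. Deptor, an inhibitor of mTOR, had 1.53, 1.92 and 1.8 FPKM in Chd7 deletion libraries, against 1.03, 0.977, 0.966 and 1.07 FPKM in wild-type libraries, a log2 fold change of 0.45 ± 0.0784 (SE; limma adjusted p = 0.043). Mtor, Myc and Mycn did not pass the threshold (limma adjusted p = 0.952, 0.954 and 0.819).

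**Figure D5:**
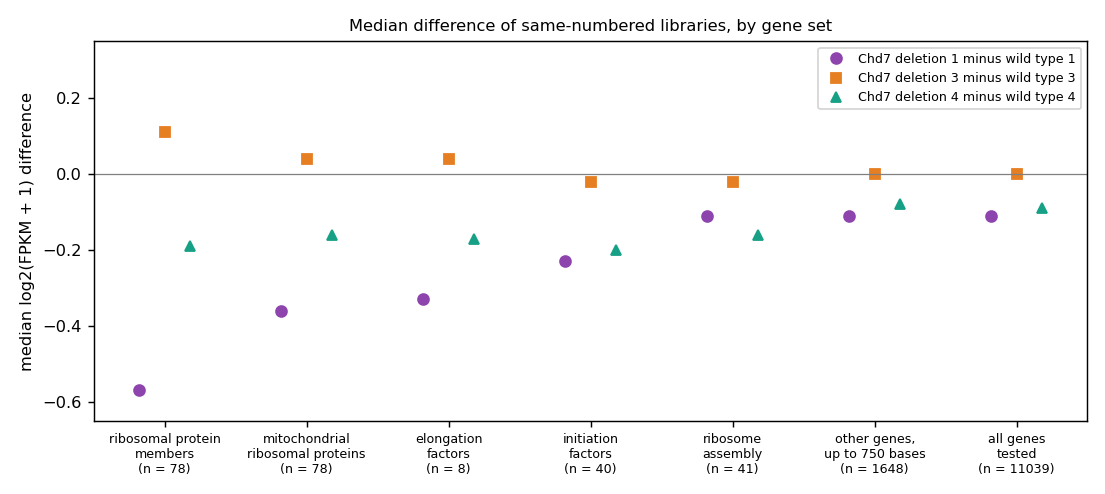
Median log2(FPKM + 1) difference of Chd7 deletion minus wild type in pair 1 (purple circles), pair 3 (orange squares) and pair 4 (green triangles), for 7 gene sets with the number of genes tested in each. The ribosomal protein members have the lowest pair 1 median, -0.57, and the highest pair 3 median, 0.11, of these sets.

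Near-identical copies limit how well single members can be read. Many members have processed pseudogenes elsewhere in the genome, and how reads matching several places were counted is not given in the sources used here. In GENCODE transcripts a median of 52.5% of a member's 50-base words also occurred in another gene, and in 44 of 80 members the share was above 50%. It was 98.65% for Rps27, 93.32% for Rpl9 and 92.13% for Rpl10, and no such word was found for Rpl39l. Across members, mean level and shared percent had a Spearman value of 0.155 (n = 78, a description).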

How the data were processed

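The deposited values are FPKM, in a table of 7 columns that the authors made from RNA depleted of ribosomal RNA with a strand-specific kit, per the labels' protocols, from RNA with an integrity number of at least 9.5. Per the submitters' processing notes, the tools included Trimmomatic 0.38, HISAT2, SAMtools, Partek and bcl2fastq 2.18.0.12, and the build was mm10. Not given in the sources used here are the annotation, the use of strand and the handling of reads with several matches. FPKM divides reads by gene length and library total, so abundant RNA in a library lowers the values of all other genes.

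Of 19169 rows, 25 held a date for a symbol (0.153% to 0.166% of the sum) and were left out. The 11039 genes averaging 1 FPKM or more entered limma 3.58.1 (R 4.3.3) as log2(FPKM + 1), 2-sided, using an intensity trend, with Benjamini-Hochberg adjustment over all of them and a threshold of 0.05. Log2 fold changes are Chd7 deletion minus wild type on that scale, which understates changes of low genes. Folds are ratios of mean FPKM. The fit was tested on simulated data with independent noise for each gene, drawn from the wild-type spread. That test holds no library shift shared by many genes, so it does not cover the pattern seen in the members. Depth is known only relative to wild type 1, as the most frequent ratio of very low values, so no counting intervals are given. The rule for the members reads symbols alone, but the choice of this family, like that of the gene lists, was made with earlier results of these data known. Named members are the 8 highest and 5 lowest in level, the 6 highest and 6 lowest in log2 fold change, those called, and those in the lists of paralogs, mouse mutants, Diamond-Blackfan anaemia, MDM2 binding and stalk genes.

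Deviations from group means correlated between same-numbered libraries over all genes tested (0.704 for number 1, 0.399 for number 3, 0.775 for number 4), all above 0.1, and each Chd7 deletion library correlated best with its own number. The numbers were therefore taken to pair the libraries, a reading from the data and not from the labels. Libraries of unlike number within the sets 1 and 2, and 3 and 4, also correlated. The values were 0.592 for Chd7 deletion 1 with wild type 2 and 0.25 for Chd7 deletion 3 with wild type 4. For Chd7 deletion 4 with wild type 3 the value was 0.377. Part of the correlation within a number was thus shared by its set. Alternatives were other pseudocounts, filters, scalings and moderation, library weights, the replicate block, the library set, and leaving out each library. The single values of a few members and of 1 gene outside the rule are not reported here. Positions and transcripts came from GENCODE on GRCm38, and copies were aligned with BLAST 2.17.0. Each gene had 1 transcript, a principal one where marked and otherwise a coding one if present, the shortest among equals. For genes without a marked principal transcript the length can thus be that of a short fragment. Promoters came from RefSeq. Other steps used pandas 2.3.3, numpy 2.4.6 and matplotlib 3.10.9 under Python 3.11.15.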

Additional observations from a re-analysis of the deposited data

Results flagged for a closer look

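Rps15a, a small-subunit protein gene, had 1 wild-type library apart from the rest. Wild type 4 had 29 FPKM, against 24.6 to 25 FPKM in the other wild-type libraries, so its gap to the nearest library was 0.908 of the whole range, above Dixon's 95% critical value for 4 values. It was the only such case among 48 groups of wild-type values looked at, where chance gives about 1 in 20. In Chd7 deletion libraries 1, 3 and 4 the gene had 16.3, 27.4 and 27.6 FPKM. Wild type 4 was the highest library in 36.8% of all genes tested.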

How the results depend on the processing

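No member was called higher in any alternative. Members called lower were 0 in every fit but 3: 2 with the replicate block on values of equal sum (Rpl34 at -0.42 and Rps4l at -0.31), 1 with the replicate block and median-of-ratios factors (Rps4l, adjusted p = 0.0388 in limma) and 1 with the library set as a covariate (Rps4l). Genes called over the whole table numbered 98 (45 higher and 53 lower), 366 with the replicate block (115 higher and 251 lower), 914 with the block on values of equal sum (567 higher and 347 lower), 607 with the block and median-of-ratios factors (333 higher and 274 lower), 147 on values of equal sum (83 higher and 64 lower), 720 with the library set (169 higher and 551 lower) and 78 without Chd7 deletion 1 (42 higher and 36 lower). The median log2 fold change of the members, -0.16, ranged from -0.36 to 0.11 when 1 library was left out, positive only without Chd7 deletion 1. With 2 alternatives chosen after seeing the data it was 0.11 (without Chd7 deletion 1, equal sum) and 0.02 (libraries 3 and 4, equal sum). In the other fits it ranged from -0.25 to -0.01, and it was -0.21 with the replicate block. The difference in share, -0.46 percentage points, was 0.13 in libraries 3 and 4 alone, -0.52 as the mean of the pairs in the replicate block, and -1.14 to 0.60 when 1 library was left out, positive only without Chd7 deletion 1. Why these values moved was not tested. Of 46 named members over 23 alternatives, 946 values kept their sign and their side of the threshold, 108 changed sign with none past the threshold, and 4 passed the threshold. Depth is known only relative to 1 library, so counting error of low members such as Rpl30 could not be set apart from other spread.

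With weights per library, signs differed in 21 named members, at 0.00 for Rpl22, Rpl35 and Rpl39, 0.01 for Rpl27a and Rpl36a, 0.02 for Rpl26, Rpl31 and Rps19, 0.04 for Rps28, 0.05 for Rpl23 and Rpl35a, 0.06 for Rpl11, Rps15a, Rps29 and Rps7, 0.07 for Rps20 and Rps24, 0.13 for Rpl38 and Rps13, 0.15 for Rplp0 and 0.23 for Rps27l. On quantile-normalised values, signs differed in 12 named members, at 0.00 for Rps20, 0.01 for Rpl11, Rpl22, Rpl23, Rpl24, Rps27l and Rps7, 0.02 for Rpl5, 0.03 for Rpl3, Rpl7 and Rps13 and 0.04 for Rplp0. In libraries 3 and 4 alone, signs differed in 12 named members, at 0.00 for Rpl38 and Rpl5, 0.01 for Rpl35 and Rpl35a, 0.02 for Rpl22, 0.03 for Rps15a and Rps19, 0.05 for Rps24, 0.06 for Rps7, 0.09 for Rps13, 0.12 for Rplp0 and 0.16 for Rps27l. On values of equal sum, signs differed in 4 named members, at 0.01 for Rpl22, Rps13 and Rps27l and 0.04 for Rplp0. With an equal sum over all rows other than the members, signs differed in 4 named members, at 0.00 for Rps13, 0.01 for Rpl22 and Rps27l and 0.03 for Rplp0. With median-of-ratios factors, signs differed in 1 named member, at 0.01 for Rplp0. With the replicate block on values of equal sum, signs differed in 1 named member, at 0.06 for Rplp0. With the replicate block and median-of-ratios factors, signs differed in 1 named member, at 0.04 for Rplp0.

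Over the 7 fits that left out 1 library each, the log2 fold changes ranged, for members whose sign changed, as Rpl10 -0.38 to 0.12, Rpl11 -0.31 to 0.26, Rpl18 -0.31 to 0.01, Rpl22 -0.19 to 0.10, Rpl23 -0.29 to 0.20, Rpl24 -0.33 to 0.21, Rpl26 -0.51 to 0.21, Rpl27a -0.34 to 0.12, Rpl3 -0.23 to 0.03, Rpl30 -0.03 to 0.37 and Rpl31 -0.34 to 0.17. They ranged as Rpl34 -0.59 to 0.00, Rpl35 -0.49 to 0.19, Rpl35a -0.36 to 0.16, Rpl36a -0.43 to 0.23, Rpl38 -0.40 to 0.36, Rpl39 -0.40 to 0.12, Rpl5 -0.25 to 0.10, Rpl7 -0.28 to 0.11, Rplp0 -0.15 to 0.18, Rplp1 -0.35 to 0.00 and Rps10 -0.43 to 0.11. They ranged as Rps13 -0.31 to 0.29, Rps14 -0.51 to 0.04, Rps15a -0.28 to 0.09, Rps19 -0.47 to 0.20, Rps20 -0.27 to 0.20, Rps24 -0.39 to 0.29, Rps26 -0.40 to 0.01, Rps27 -0.47 to 0.04, Rps27l -0.33 to 0.41 and Rps28 -0.36 to 0.21. They ranged as Rps29 -0.33 to 0.26, Rps4x -0.28 to 0.03, Rps6 -0.30 to 0.04 and Rps7 -0.26 to 0.18.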

Other observations

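A few members outside the named set show how wide the library pattern was, and they were chosen after their values were seen. Rpl41, which encodes a very short peptide of the large subunit, had 208.8, 571.9 and 458.9 FPKM in Chd7 deletion libraries 1, 3 and 4, against 343.8, 338.4, 479.6 and 524.4 FPKM in wild-type libraries 1 to 4. Rps27a, which encodes ubiquitin fused to a small-subunit protein, had 108.3, 269.2 and 225.7 FPKM in Chd7 deletion libraries, against 171.6, 158.6, 241.2 and 252.8 FPKM in wild-type libraries. Rpsa, also known as the laminin receptor, had 256.1, 404.3 and 364.5 FPKM in Chd7 deletion libraries, against 335.0, 352.1, 383.3 and 416.4 FPKM in wild-type libraries. In all 3 genes the groups overlapped, and wild type 1 and 2 lay below wild type 3 and 4.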
